A study of Mus musculus with 68 samples.

Results

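The 6 genes described here encode the chains of the 3 collagens that build the heterotypic fibril of cartilage: Col2a1 (collagen II), Col9a1, Col9a2 and Col9a3 (collagen IX), and Col11a1 and Col11a2 (collagen XI). They were taken by symbol from a count table of 23420 gene symbols, and all 6 were found. The samples are growth plates, the cartilage in which long bones grow, of mixed-background mice aged 2 (P2), 3 (P3) or 28 days (P28). No genotype and no treatment are given for the mice, and fixation is the only agent that differs among sections of 1 age. The 3 zones of the growth plate, namely resting, proliferative and hypertrophic cartilage, were cut by laser from frozen sections of 10 µm and made into 68 SMART-seq2 libraries, which copy whole transcripts from very little RNA.

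Ethanol-fixed libraries numbered 9 resting, 8 proliferative and 8 hypertrophic at P2, and 8 resting, 9 proliferative and 9 hypertrophic at P28. Xylene fixation was used for 4 resting, 5 proliferative and 5 hypertrophic libraries of P28, and 1 P3 animal gave 1 ethanol-fixed library per zone. Libraries of both main ages that were fixed in ethanol and held 100000 counts or more entered the tests, 26 in all, summed by animal and zone into 21 sums (4 animals in each zone for P2, 3 for P28). Animals carry letters within an age here (P2 A, P2 C, P2 D, P2 E, P2 F, P2 G, P28 A, P28 B and P28 D). P2 C gave a hypertrophic sum only, P2 E a proliferative and P2 F a resting sum only. Zone differences within animals at P2 thus rest on the other 3, P2 A, P2 D and P2 G. The labels of P2 D and P28 B name animals in the plural, so these may be pools. The labels do not give sex.

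Collagen II fibrils consist of identical chains encoded by Col2a1 and give cartilage its tensile strength. Collagen XI, made of the Col11a1 and Col11a2 chains together with a further modified Col2a1 chain, lies inside the fibril and limits its diameter. Collagen IX, made of the Col9a1, Col9a2 and Col9a3 chains, sits on the fibril surface and links it to other matrix molecules. The transcription factors Sox9, Sox5 and Sox6 drive these genes in chondrocytes.

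In the GENCODE annotation of GRCm38, the mouse build named mm10 in the submitters' processing notes, Col2a1 lies on chromosome 15 from 97975602 to 98004695 on the minus strand. The other 5 lie on plus strands: Col9a1 on chromosome 1 from 24177610 to 24252684, Col9a2 on chromosome 4 from 121039385 to 121055322, Col9a3 on chromosome 2 from 180597790 to 180622189, Col11a1 on chromosome 3 from 114030540 to 114220718 and Col11a2 on chromosome 17 from 34039437 to 34066685. Their exons cover 9.24 kb for Col2a1, 5.07 kb for Col9a1, 3.10 kb for Col9a2, 3.85 kb for Col9a3, 12.7 kb for Col11a1 and 6.87 kb for Col11a2. Levels of different members are compared below per kilobase of these exons, while ranks among all genes and shares of counts do not take length into account. Col9a3 shares 234 exon bases with Tcfl5 on the other strand, and SMART-seq2 does not mark strand.

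Promoter windows of Col11a1 and Col9a1 are shown because Col11a1 passed the test between zones at P28 and Col9a1 that of a change of its zone difference with age. Each runs from 250 bases before to 50 bases after an annotated start, 5′ to 3′ on the plus strand of GRCm38.p6, from RefSeq, where 4 of the 6 members had a window (Col2a1 and Col9a3 did not match). Capitals mark GGGCGG, the core of an Sp1-type GC box. Col9a1 has an upstream and a downstream start, which gene counts cannot separate.
Col11a1, chr3:114030290-114030589: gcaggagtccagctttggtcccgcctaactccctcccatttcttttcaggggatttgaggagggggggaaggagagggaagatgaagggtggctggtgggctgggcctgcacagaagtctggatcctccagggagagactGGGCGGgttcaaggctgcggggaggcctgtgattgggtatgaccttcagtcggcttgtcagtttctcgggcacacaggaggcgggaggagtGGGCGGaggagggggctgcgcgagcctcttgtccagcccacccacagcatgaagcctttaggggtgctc
Col9a1 upstream start, chr1:24177360-24177659: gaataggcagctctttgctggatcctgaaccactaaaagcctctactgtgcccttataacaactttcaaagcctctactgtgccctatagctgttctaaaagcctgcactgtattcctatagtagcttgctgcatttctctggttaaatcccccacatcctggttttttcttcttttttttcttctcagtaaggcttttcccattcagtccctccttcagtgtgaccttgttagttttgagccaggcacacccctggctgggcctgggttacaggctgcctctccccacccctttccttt
Col9a1 downstream start, chr1:24194953-24195252: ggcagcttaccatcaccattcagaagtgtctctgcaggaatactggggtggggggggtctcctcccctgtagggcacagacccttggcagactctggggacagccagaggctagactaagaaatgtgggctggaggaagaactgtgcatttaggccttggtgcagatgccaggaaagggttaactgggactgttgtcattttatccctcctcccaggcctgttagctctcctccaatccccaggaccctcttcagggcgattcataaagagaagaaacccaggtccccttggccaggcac
The 4 letter strings searched on both strands were the Sox-type strings AACAAT and AACAAAG, the GC box string GGGCGG and the TATA string TATAAA; none contains another. The Col11a1 window held GGGCGG at 110 and 19 bases before the start and none of the other strings. Neither Col9a1 window held any of the strings. The Col9a2 window held GGGCGG 3 times, and the Col11a2 window held it 2 times together with TATAAA at 143 bases before the start. Among 32851 RefSeq windows of this length, 35.7% held GGGCGG, 13.6% TATAAA, 10.7% AACAAT and 5.85% AACAAAG.

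Depth ran from 748 to 3347722 counts per library. The symbols Rn45s, Lars2 and Glra2 took a large and uneven share, 9.28% to 92.1% of the counts of the tested sums, so CPM (counts per 1000000) are given either after TMM normalization ("TMM CPM") or over the counts outside these 3 symbols. Chondrocyte markers (Acan, Sox9, Matn1, Matn3 and Hapln1) were all present in every zone and age, with a summed level of 8979 to 65360 CPM outside the 3 symbols. Endothelial markers were at 0 in most sums. Several libraries stood against their labels or their animal. The library labelled P28 hypertrophic xylene replicate 3 held 188 Col2a1 counts in 2675003, or 89.3 CPM outside the 3 symbols against 68543 to 152710 in the other 4 of its group. Its Col1a1 and Col1a2, the chains of bone collagen I, stood at 79764 and 107880 CPM outside the 3 symbols, and Col10a1 at 41.8. The library labelled P28 resting ethanol replicate 1, the tested resting library of P28 A, held 21084 CPM of Col10a1, a hypertrophic marker, against 24.2 in that of P28 B. The library labelled P28 proliferative ethanol replicate 9, from P28 D, held 267 counts of Xist and 0 of 4 Y-linked genes, whereas the resting and hypertrophic sums of P28 D held 0 and 2 Xist counts beside 76 and 179 Y-linked counts. The P2 G resting library (replicate 8) held 128 Xist and 747 Y-linked counts, and the P3 proliferative library 355 and 311. The calls of members below are given with and without the libraries they rest on.

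The members made up 3.86% to 25.6% of the counts outside the 3 symbols in the tested sums. Col2a1 ranked first among all genes outside the 3 symbols in 42 of 68 libraries and 3 or better in 65. Its share of the members' counts ran from 28.6% in the P2 A resting sum to 75.8% in the P2 F resting sum. Per kilobase, Col2a1 had the highest mean TMM CPM of the 6 in every zone and age, from 2942 ± 1595 (SD, n = 4) in P2 proliferative to 10166 ± 4080 (SD, n = 3) in P28 proliferative cartilage. Col11a2 had the lowest, from 109 ± 5.88 (SD, n = 3) in P28 resting to 294 ± 128 (SD, n = 3) in P28 proliferative cartilage. The collagen IX chains and Col11a1 lay between them, at means of up to 3083 TMM CPM per kilobase, and their order changed with zone and age. In P2 proliferative cartilage Col9a3 (1744 ± 630), Col9a1 (1331 ± 718), Col9a2 (1028 ± 285) and Col11a1 (680 ± 147, each TMM CPM per kilobase, SD, n = 4) followed each other. The first 3 of these differed from their neighbours by less than 1 SD of the wider spread, and Col9a2 and Col11a1 by more.

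**Figure D1:**
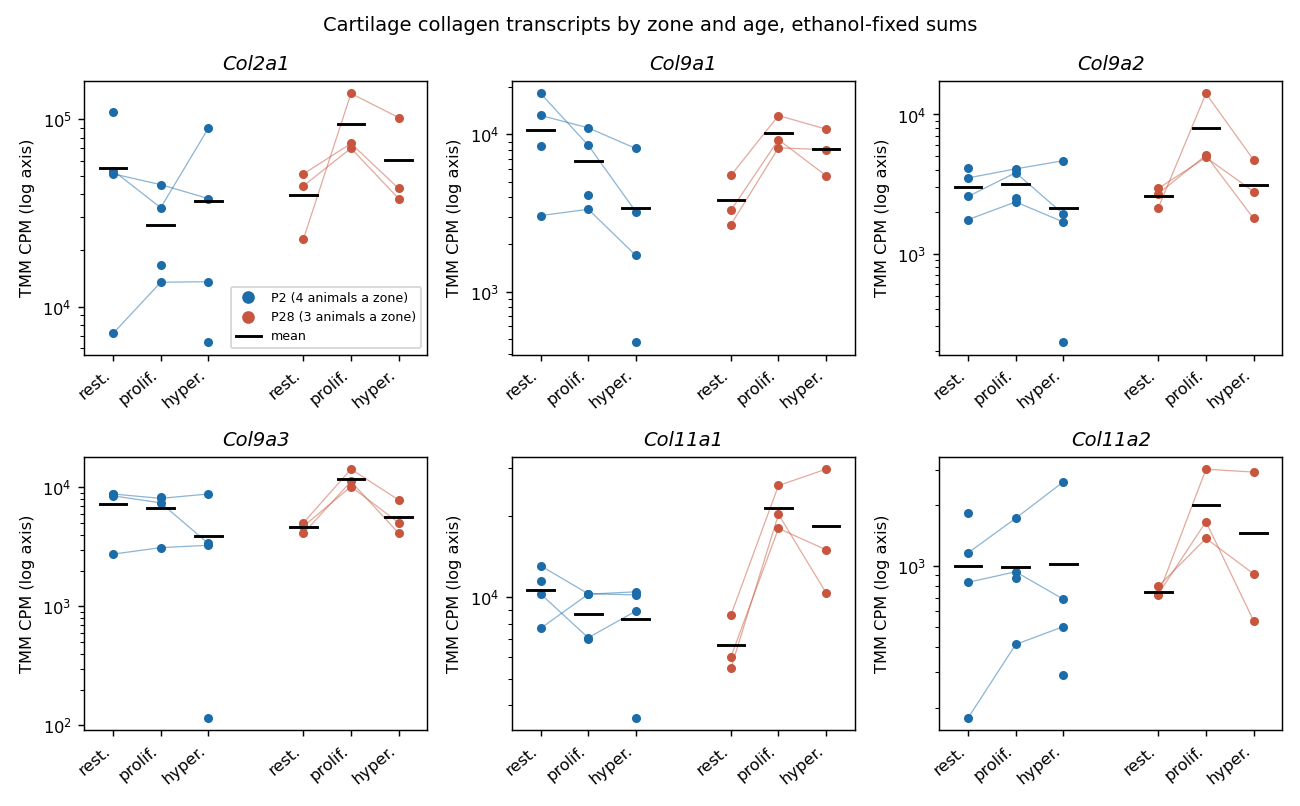
TMM CPM (log axis) of each member in the resting, proliferative and hypertrophic zones at P2 (blue, 4 animals a zone) and P28 (red, 3 animals a zone); points are sums per animal, thin lines join zones of 1 animal and black bars are means. At P28 each member has its 3 resting points below its 3 proliferative points, while at P2 the points of the zones overlap for each member.

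In the ethanol sums of P28 every member was lower in the resting than in the proliferative zone, in 3 of 3 animals and without overlap between the groups. Over all 6958 genes tested, 14.7% were lower without overlap in this comparison, and the median gene stood at -0.81 on the log2 scale, so a fall was common among all genes; the 6 members had a median of -1.38. By edgeR with Benjamini-Hochberg adjustment over all genes, 1 of the 6, Col11a1, fell at an adjusted p under 0.05, as did 0.417% of all genes, and all 6 had an unadjusted p under 0.05, as did 729 of the 6958 genes.

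Col11a1, the chain of the fibril core, stood in P28 resting cartilage at 5471 (P28 A), 6026 (P28 B) and 8598 (P28 D) TMM CPM. In the proliferative zone of the same animals it stood at 20234, 17958 and 25852 TMM CPM. All proliferative sums were thus above all resting sums, and the fitted difference was -1.70 ± 0.42 on the log2 scale (SE, adjusted p = 0.0226 in edgeR). Relative to the median gene the Col11a1 difference was -0.88, and with RLE in place of TMM, which moved that median to -0.24, it was -0.83. The call was lost with RLE (difference -1.07, adjusted p = 0.427), without the library labelled P28 proliferative ethanol replicate 9 (-1.49, adjusted p = 0.246), without P28 resting ethanol replicate 1 (-1.82, adjusted p = 0.0945), and on leaving out P2 A, P2 D, P28 A, P28 B or P28 D (adjusted p = 0.0842 to 0.381 in edgeR). With the xylene sums of P28 added it was -1.75 (adjusted p = 0.000432 in edgeR), and without hypertrophic xylene replicate 3 among them -1.74 (adjusted p = 0.000331). In these fits P28 D entered once for each fixation, as if its ethanol and xylene sums came from different animals.

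The other members did not pass in this comparison, although Col9a1 did with xylene sums added (-1.45, adjusted p = 0.0160 in edgeR, or 0.00846 without hypertrophic xylene replicate 3). There too P28 D entered once for each fixation. Col9a1 differed by -1.46 ± 0.45 (adjusted p = 0.103), Col9a2 by -1.40 ± 0.50, Col9a3 by -1.35 ± 0.45, Col11a2 by -1.27 ± 0.60 and Col2a1 by -1.11 ± 0.36 (log2, SE, adjusted p = 0.155 to 0.421 for these 4 in edgeR). Without the library labelled P28 proliferative ethanol replicate 9, Col2a1 differed by -0.72 and again did not pass in edgeR. Each member's difference was below 0 in 26 of 26 settings tried, and Col11a1 had the range -1.82 to -1.07. Ratios of the zone means were below 1 for each member on each of 3 bases: 0.314 to 0.419 in TMM CPM, 0.435 to 0.688 over all counts and 0.425 to 0.630 over the counts outside the 3 symbols.

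Summed markers of chondrocytes, of osteoblasts and of blood and marrow differed between the same P28 groups without overlap, in CPM outside the 3 symbols. Perichondrium and fibroblast markers overlapped, at 147 to 1353 in the resting and 590.5 to 1010 in the proliferative sums. So did hypertrophic markers, at 469 to 21920 against 412 to 7182. Osteoclast and muscle markers also overlapped, and endothelial markers were at 0 in both zones. Chondrocyte markers summed to 19960 to 30900 in the resting and 44790 to 51620 in the proliferative sums. Osteoblast markers summed to 112 to 483 against 801 to 853, with Bglap2 at 0 in both zones. Blood and marrow markers, of which 6 of 8 listed were in the table, summed to 84.6 to 1400 against 2.66 to 35.4, with Hba-a1 and Hba-a2 at 0 in both. Their part in the members' differences was not tested.

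Col2a1 at P28 stood at 44166, 51121 and 22941 TMM CPM in the resting sums of P28 A, B and D, and at 70128, 74330 and 137450 in their proliferative sums. The P28 D proliferative sum was the highest of all 21 for Col2a1, and it holds replicate 9, whose Col2a1 level was 201610 CPM outside the 3 symbols against 94907 in replicate 8 of the same label. Col9a2 showed a like spread in these sums, at 2138 to 2942 TMM CPM in resting and 4915 to 14154 in proliferative cartilage.

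**Figure D2:**
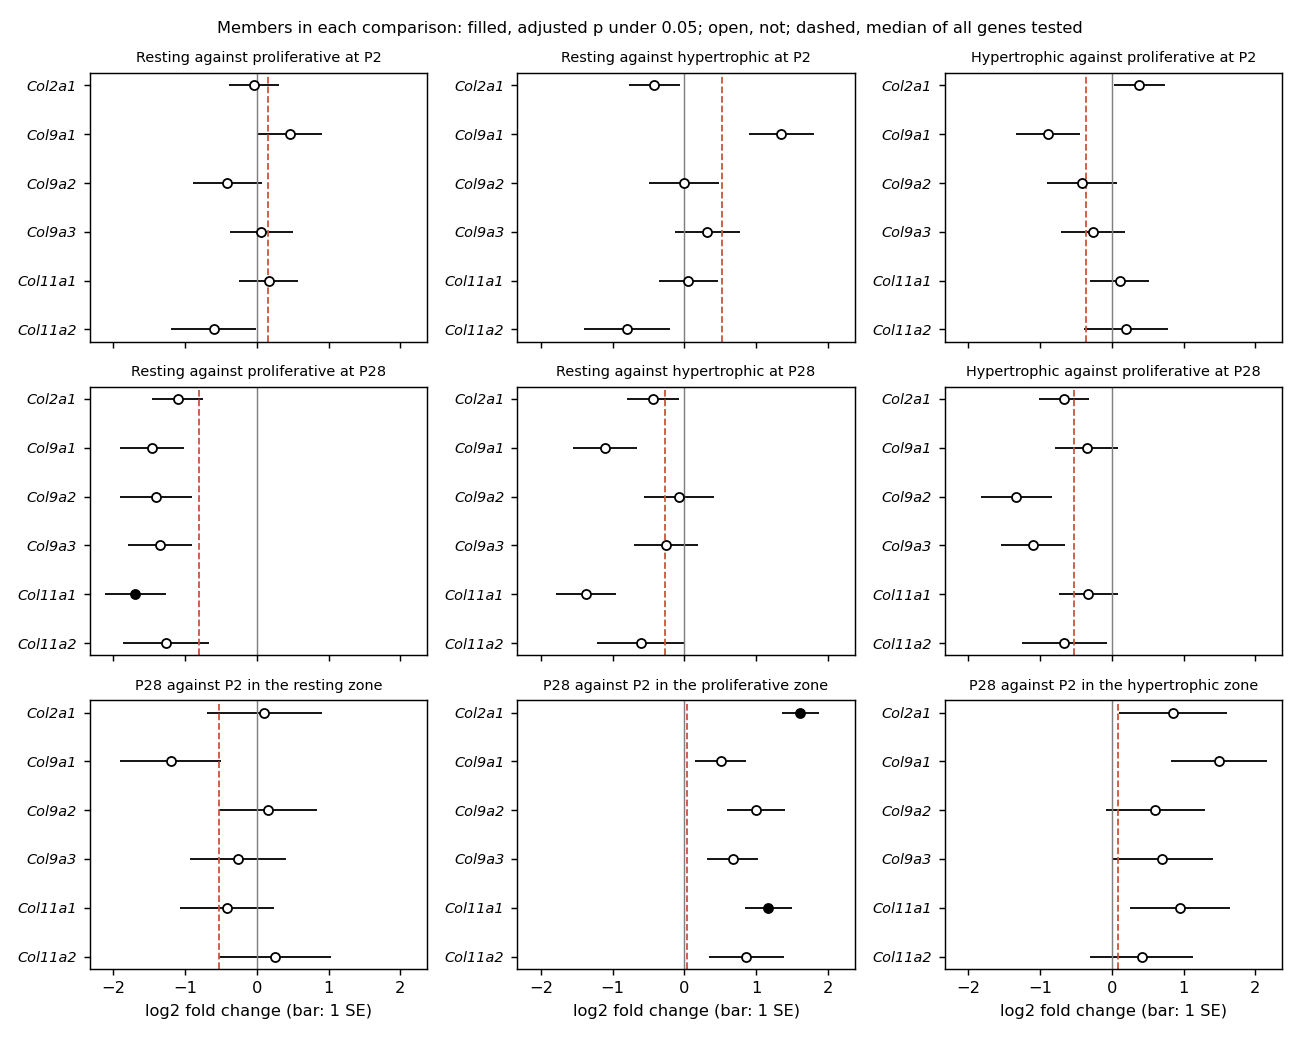
Log2 fold change of each member in the 6 zone comparisons and the 3 age comparisons, with bars of 1 SE; filled points passed an adjusted p of 0.05, open points did not, and the dashed line is the median of all genes tested. Filled points are Col11a1 in resting against proliferative at P28, and Col2a1 and Col11a1 in P28 against P2 in the proliferative zone.

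Between the hypertrophic and proliferative zones at P28, Col9a2 and Col9a3 were lower in hypertrophic cartilage without overlap, where 13.8% of all genes were lower without overlap. Col9a2 stood at 1791 to 4721 TMM CPM in the hypertrophic sums against 4915 to 14154 in the proliferative ones, and differed by -1.33 ± 0.49 (SE, adjusted p = 0.197 in edgeR). Col9a3 stood at 4129 to 7864 against 10165 to 14243 TMM CPM, a difference of -1.10 ± 0.45 (SE, unadjusted p = 0.0142 in edgeR), which did not pass. In edgeR 0 of 6 members passed, where 1.12% of genes did; 2 members and 849 of 6958 genes had an unadjusted p under 0.05, and DESeq2 called 0 members. Without the library labelled P28 proliferative ethanol replicate 9, Col9a2 differed by -1.06 (adjusted p = 0.540) and Col9a3 by -0.90 (adjusted p = 0.577, both in edgeR).

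Between the resting and hypertrophic zones at P28, Col11a1 was lower in resting cartilage without overlap, where 8.62% of genes were, at the resting levels above against 10394 (P28 A), 14976 (P28 B) and 29695 (P28 D) TMM CPM. Its difference was -1.37 ± 0.42 (SE, adjusted p = 0.0580 in edgeR). In edgeR 0 of 6 members passed, where 1.77% of genes did; 2 members and 956 of 6958 genes had an unadjusted p under 0.05, and DESeq2 called 0 members. Without P28 resting ethanol replicate 1, Col11a1 differed by -1.49 (adjusted p = 0.156 in edgeR). With the xylene sums added, and P28 D again entered once for each fixation, Col11a1 passed (-1.47, adjusted p = 0.00188 in edgeR).

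At P2 the zones overlapped for each member in each pair of zones, where 4.04% of genes did not overlap between resting and proliferative, 5.45% between hypertrophic and proliferative and 12.0% between resting and hypertrophic cartilage. In edgeR and in DESeq2, 0 of 6 members passed. In all genes edgeR called 0.259% for resting against proliferative, 2.31% for hypertrophic against proliferative and 3.77% for resting against hypertrophic cartilage at P2. An unadjusted p under 0.05 was reached by 0 members in the first pair and by 1, Col9a1, in each of the others, and by 288, 989 and 1156 of 6958 genes in this order. Col2a1 at P2 spread widely between animals, from 7202 (P2 A) to 108880 (P2 F) TMM CPM in resting, 13501 (P2 A) to 44837 (P2 D) in proliferative and 6460 (P2 C) to 89555 (P2 G) in hypertrophic cartilage. Col11a1 kept a narrow range at P2, 6997 to 13074 TMM CPM in the resting and proliferative sums and 3591 to 10479 in the hypertrophic ones.

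The remaining collagen IX chains and Col11a2 also overlapped between the zones at P2. Col9a3 stood at 2750 (P2 A), 8492 (P2 D), 8811 (P2 F) and 8802 (P2 G) TMM CPM in resting cartilage. In proliferative cartilage it stood at 3119 (P2 A), 7426 (P2 D), 8245 (P2 E) and 8094 (P2 G), and in hypertrophic cartilage at 3264 (P2 A), 115 (P2 C), 3380 (P2 D) and 8814 (P2 G). P2 A was thus lowest in the first pair of zones and P2 C in the hypertrophic zone, where 8 Col9a3 counts lie behind the value. Col9a2 ranged from 1755 to 4140 TMM CPM in resting, 2353 to 4065 in proliferative and 231 to 4651 in hypertrophic cartilage. Col11a2, the second chain of collagen XI, ranged from 178 (P2 A) to 1840 (P2 F) in resting, 410 (P2 A) to 1727 (P2 G) in proliferative and 288 (P2 C) to 2611 (P2 G) TMM CPM in hypertrophic cartilage.

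Col9a1, whose long form carries the globular end domain of collagen IX, was the 1 member whose resting against hypertrophic difference changed with age past the threshold. At P2 it stood at 3040 (P2 A), 18188 (P2 D), 8452 (P2 F) and 13191 (P2 G) TMM CPM in resting cartilage, and at 1698 (P2 A), 476 (P2 C), 3220 (P2 D) and 8128 (P2 G) in hypertrophic cartilage. It was higher in resting than in hypertrophic cartilage in 3 of 3 animals with both zones, although the groups overlapped. At P28 it stood at 3286, 2663 and 5473 TMM CPM in the resting sums of P28 A, B and D and at 5462, 7978 and 10791 in their hypertrophic sums, lower in resting in 3 of 3 animals, with overlap between P28 D resting and P28 A hypertrophic.

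The resting against hypertrophic difference of Col9a1 was 1.35 ± 0.45 at P2 (adjusted p = 0.0661) and -1.11 ± 0.44 at P28 (SE, adjusted p = 0.212, both in edgeR). Neither passed alone. The change of this difference between the ages, tested as an interaction, was -2.46 ± 0.64 on the log2 scale (SE, adjusted p = 0.0407 in edgeR), where 0.172% of all genes were called lower. The median gene stood at 0.52 at P2 and -0.27 at P28, and the median change over all genes was -0.82. Relative to that median the Col9a1 change was -1.64. Without the library labelled P28 proliferative ethanol replicate 9 the Col9a1 change was -2.44 (adjusted p = 0.171), without P2 resting ethanol replicate 8 -2.67 (adjusted p = 0.0922) and without P28 resting ethanol replicate 1 -2.60 (adjusted p = 0.0849). The call was also lost with RLE (-2.02, adjusted p = 0.253) and on leaving out P2 A, P2 C, P2 D, P2 G or P28 B (adjusted p = 0.0925 to 0.655 in edgeR). P2 C had no sum of another zone, so under the animal block it holds no zone difference of its own.

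For the other interactions, 0 of 6 members passed in edgeR or DESeq2. The change of resting against proliferative was called in 0.144% of genes. In it 4 members and 472 of 6958 genes had an unadjusted p under 0.05, with Col9a1 at -1.92 ± 0.63 (adjusted p = 0.328 in edgeR) and Col11a1 at -1.86 ± 0.59 (SE, adjusted p = 0.306 in edgeR). The median of this change was -0.98 over all genes and -1.24 over the members, so a fall was common among all genes. The change of hypertrophic against proliferative was called in 0 of 6958 genes by edgeR, 413 of which had an unadjusted p under 0.05, with 1 member, Col2a1, among them (-1.05 ± 0.50, SE, unadjusted p = 0.0361 in edgeR). Its median was -0.24 over all genes and -0.85 over the members.

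Among markers of other cells, those of perichondrium and fibroblasts separated the resting and hypertrophic groups at P2 but not at P28. Perichondrium and fibroblast markers (Dcn, Col3a1, Postn, Lum and Dpt) summed to 1608 to 9210 CPM outside the 3 symbols in P2 resting against 225 to 690 in P2 hypertrophic sums, and to 147 to 1353 against 362 to 1448 at P28; Dpt was at 0 in each of these groups. Osteoblast markers (Col1a1, Col1a2, Bglap, Bglap2 and Sp7) overlapped, at 662 to 3430 in P2 resting and 61.9 to 5591 in P2 hypertrophic sums, with Bglap and Bglap2 at 0 in both. Blood and marrow markers overlapped too, at 5.43 to 40.5 in P2 resting and 25.5 to 2646 in P2 hypertrophic sums. Hba-a1 and Hba-a2 were at 0 in both. The part of these cells in the Col9a1 result was not tested. In such bulk captures, fewer cells of a type and less RNA per cell cannot be told apart.

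Ratios between collagen IX chains within 1 sum do not depend on the normalization. Col9a1 per Col9a3, in counts per kilobase, was higher in resting than in hypertrophic cartilage in 3 of 3 P2 animals (0.840 against 0.396 in P2 A, 1.63 against 0.724 in P2 D and 1.14 against 0.701 in P2 G). At P28 it was lower in resting in 3 of 3 animals, with medians of 0.607 in resting, 0.625 in proliferative and 1.04 in hypertrophic cartilage. Without P2 G and P28 A, whose resting libraries are among the doubted ones, 2 animals remained at each age, with the same orders. The ratio of the P2 C hypertrophic sum, 3.14, rests on 33 Col9a1 and 8 Col9a3 counts. The single P3 animal gave 1.08 in resting, 0.829 in proliferative and 0.830 in hypertrophic cartilage, and the P3 proliferative library held both Xist and Y-linked counts. In the xylene sums, Col9a1 per Col9a3 was 0.904, 1.07 and 1.13 in the resting, proliferative and hypertrophic zones of P28 D, and 0.345, 0.911 and 1.15 in those of P28 E. Col9a1 per Col9a2 and per Col2a1 were also higher in resting than in hypertrophic cartilage in 3 of 3 P2 animals. In the ethanol sums of P28 they were lower in resting in 2 of 3 animals. P28 D had the reverse, at 1.56 against 1.40 for Col9a2 and 0.435 against 0.192 for Col2a1.

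**Figure D3:**
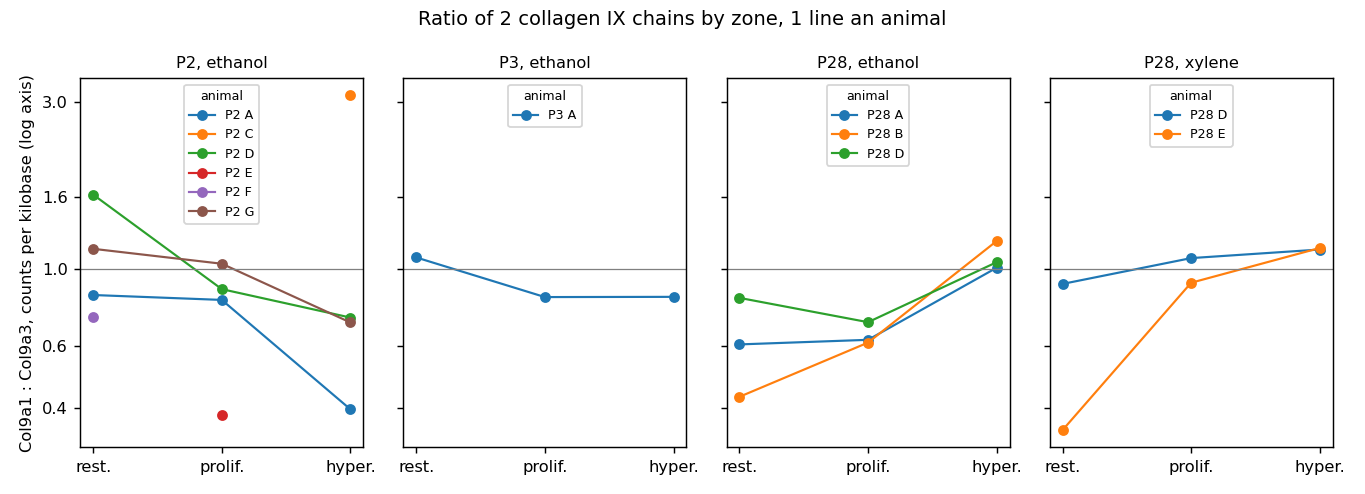
Col9a1 per Col9a3 in counts per kilobase (log axis) by zone, 1 line an animal, for ethanol-fixed P2, P3 and P28 sums and xylene-fixed P28 sums (without the library labelled P28 hypertrophic xylene replicate 3). P2 animals with both zones have resting above hypertrophic, and P28 animals the reverse; the point at 3.14 is P2 C, with 8 Col9a3 counts.

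Against Col2a1, the level of Col9a1 in P2 hypertrophic cartilage was 0.134 to 0.228 per kilobase, below the 0.347 to 0.594 of P2 proliferative sums with no overlap. At P28 these ranges were 0.192 to 0.340 and 0.175 to 0.240 and overlapped. Col11a1 exceeded Col11a2 per kilobase in each tested sum, by 2.16 to 31.2 times, with group medians of 4.08 (P28 resting) to 8.80 (P28 hypertrophic).

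Between P2 and P28 the members that passed the test were in the proliferative zone. Col2a1, Col9a2, Col9a3 and Col11a1 were higher in the 3 P28 sums than in the 4 P2 sums without overlap, where 5.82% of genes were. In edgeR 2 of 6 members rose, Col2a1 and Col11a1, where 0.424% of genes were called higher, 3 members and 265 of 4712 genes had an unadjusted p under 0.05, and the members' median was 0.93 against 0.04 for all genes.

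Col2a1 in the proliferative zone stood at 13501 (P2 A), 44837 (P2 D), 16686 (P2 E) and 33760 (P2 G) TMM CPM at P2, and at 70128 (P28 A), 74330 (P28 B) and 137450 (P28 D) at P28. The lowest P28 sum was above the highest P2 sum, and the difference was 1.62 ± 0.26 on the log2 scale (SE, adjusted p = 2.29e-07 in edgeR). P2 G and P28 D come from another deposit set than the rest, and Col2a1 was higher at P28 within each set. Without the library labelled P28 proliferative ethanol replicate 9, Col2a1 differed by 1.28 ± 0.25 (SE, adjusted p = 0.000194 in edgeR). The call was lost without P2 E (1.52, adjusted p = 0.336 in edgeR) and in DESeq2 (1.51, adjusted p = 0.333). Its ratio of means was 3.46 in TMM CPM, 2.02 over all counts and 2.40 outside the 3 symbols.

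Col11a1 in the proliferative zone stood at 7093 (P2 A), 10309 (P2 D), 6997 (P2 E) and 10272 (P2 G) TMM CPM at P2 and at 20234, 17958 and 25852 in P28 A, B and D, again without overlap. It differed by 1.17 ± 0.33 (SE, adjusted p = 0.0487 in edgeR). The call was lost without the library labelled P28 proliferative ethanol replicate 9 (1.01, adjusted p = 0.241), with RLE (1.03, adjusted p = 0.144) and on leaving out P2 E, P2 G, P28 A, P28 B or P28 D (adjusted p = 0.230 to 0.794 in edgeR). Col9a2 (ratio of mean TMM CPM 2.53), Col11a2, at 0.86 ± 0.52, Col9a3, at 0.68 ± 0.36, and Col9a1, at 0.51 ± 0.36, did not pass (log2, SE, adjusted p = 0.545 to 0.998 in edgeR), and the ratio of Col9a1 fell below 1 over all counts (0.958) and not on the other bases.

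The P28 proliferative sums also held more of the hypertrophic markers: Col10a1, Ihh, Ibsp, Spp1 and Alpl summed to 412 to 7182 CPM outside the 3 symbols, against 46.3 to 136 at P2. Their part in the age differences was not tested. Among the proliferative sums, P2 A, P2 E, P28 A and P28 B held Xist and no Y-linked counts, P2 D and P2 G held Y-linked counts and no Xist, and P28 D held 267 Xist and 4 Y-linked counts. Sums with Y-linked counts and no Xist were thus all at P2, and the part of sex in the age differences was not tested.

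In the resting and hypertrophic zones 0 of 6 members passed between the ages in edgeR or DESeq2, where edgeR called 0.872% and 0.102% of genes. An unadjusted p under 0.05 was reached by 0 members and 336 of 3327 genes in the resting zone, and by 1 member, Col9a1, and 103 of 1963 genes in the hypertrophic zone. Col9a1 there had a ratio of mean TMM CPM of 2.39 (adjusted p = 0.839 in edgeR). In the resting zone Col9a1 stood at -1.20 ± 0.70 (SE, adjusted p = 0.620) and Col2a1 at 0.10 ± 0.80 (SE, adjusted p = 0.996 in edgeR).

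The P3 animal had no replicate. Its Col2a1 levels were 85797, 95967 and 67193 CPM outside the 3 symbols in the resting, proliferative and hypertrophic zones. Col9a1 was 22337, 15334 and 10610 in the same order, higher in resting than in hypertrophic cartilage, and Col11a1 was 12483, 19971 and 14350 CPM outside the 3 symbols.

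Fixation was compared in P28 sums of 1 deposit set, in which each ethanol sum came from P28 D and the xylene sums from P28 D and P28 E. In edgeR 0 of 6 members passed, where 0.035% of 8583 genes did. Differences of xylene against ethanol ran from -0.58 ± 0.49 (Col9a2) to 0.05 ± 0.42 (Col9a1), with Col11a1 at -0.50 ± 0.38 and Col2a1 at -0.20 ± 0.37 (log2, SE, adjusted p = 0.511 to 0.971 in edgeR). No member had an unadjusted p under 0.05, DESeq2 called 0, and RLE moved Col11a1 to -0.88 (adjusted p = 0.333 in edgeR). Zones of the same animals entered as separate sums, without an animal term. These p-values thus do not measure spread between animals, and may be too small or too large. Without P28 hypertrophic xylene replicate 3 the same range was -0.45 (Col9a2) to 0.22 (Col9a1), and without P28 proliferative ethanol replicate 9 it was -0.37 (Col9a2) to 0.30 (Col11a2).

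Within the xylene sums, Col11a1 in resting cartilage was 0.394 times its proliferative level in P28 D and 0.306 times in P28 E, in CPM outside the 3 symbols. Col9a1 was at 0.656 and 0.259 times. Col2a1 was at 1.01 and 0.925 times, so its resting and proliferative levels were nearly equal in these sums. Col9a2 was at 1.1 and 0.86 times, Col9a3 at 0.778 and 0.683 times and Col11a2 at 0.793 and 0.901 times. Col9a1 in resting relative to hypertrophic cartilage was 0.341 in P28 E, and in P28 D it was 1.35 with and 0.796 without the library labelled hypertrophic xylene replicate 3.

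**Figure D4:**
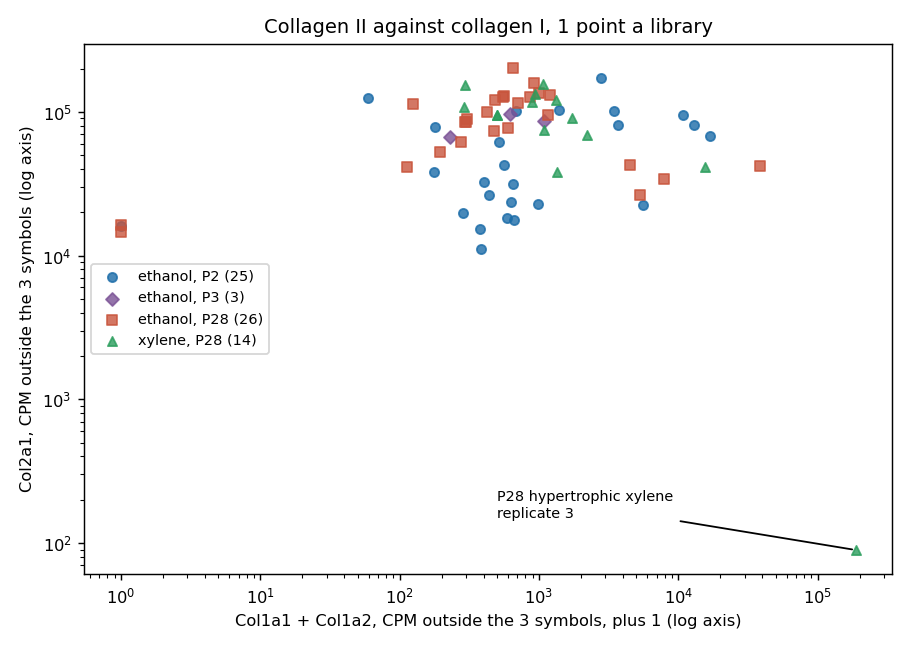
Col2a1 against Col1a1 plus Col1a2, both in CPM outside the 3 symbols (log axes; 1 added on the x axis), 1 point for each of the 68 libraries by age and fixation. P28 hypertrophic xylene replicate 3 lies apart, at 89.3 Col2a1 CPM; the other 4 libraries of its group lie at 68543 to 152710.

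The 25 ethanol libraries under 100000 counts, which entered no test, have few reads behind their levels. Their median Col2a1 was 77667 CPM outside the 3 symbols in P28 resting (5 libraries, 40 to 6355 Col2a1 counts), 125970 in P28 proliferative (3 libraries) and 38493 in P28 hypertrophic cartilage (4 libraries). At P2 the medians were 31410 in resting, 21062 in proliferative and 21197 in hypertrophic cartilage. Median Col11a1 in these libraries was 12976 in P28 resting and 36443 in P28 proliferative cartilage, with ranges of 4505 to 19183 and 20067 to 50292 CPM outside the 3 symbols. Of these libraries, 3 of the 5 resting and 2 of the 3 proliferative ones came from P28 A, and the value of 20067 rests on 12 Col11a1 counts in a library of 872 counts. Col9a1 was at 2 to 14 counts in the P2 proliferative and hypertrophic libraries of this depth, too few for an order between zones.

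The balance of Col11a1 and Col2a1 moved with the share of Rn45s, Lars2 and Glra2. Among ethanol libraries with at least 50 Col2a1 counts, Col11a1 per Col2a1 (counts per kilobase) had a median of 0.167 in the 25 with these symbols under 50% of counts and 0.390 in the 24 at 50% or more. Col9a1 per Col2a1 went the other way, with medians of 0.286 and 0.136. Zones differ in this share, with medians of 37.0% in P2 resting and 81.3% in P2 hypertrophic ethanol libraries, and its part in the zone results was not tested.

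**Figure D5:**
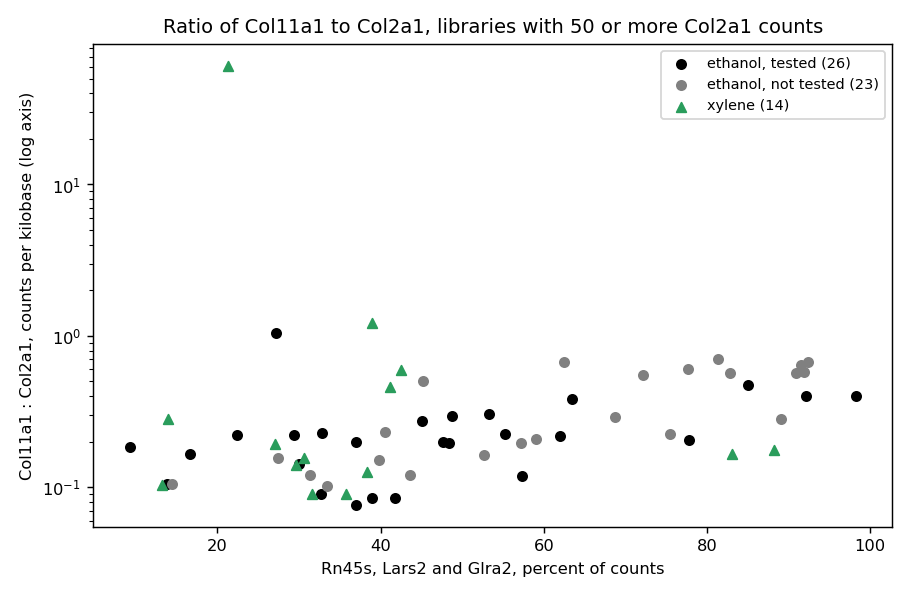
Col11a1 per Col2a1 in counts per kilobase (log axis) against the percent of counts taken by Rn45s, Lars2 and Glra2, for libraries with at least 50 Col2a1 counts; black, tested ethanol libraries; grey, untested ethanol libraries; green triangles, xylene libraries. Ethanol libraries have a median of 0.167 under 50% and 0.390 at 50% or more, and the point at 60.7 is P28 hypertrophic xylene replicate 3.

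Across the 21 sums the members correlated with each other at Pearson r = 0.646 (Col11a1 with Col11a2) to 0.928 (Col9a2 with Col9a3) in log2 TMM CPM; the sums share libraries, depth and normalization, and the values are a description. Col2a1 was closest to Col11a2 (r = 0.892). For the collagen IX chains, the genes outside the set with the highest r included P4hb, the beta subunit of prolyl 4-hydroxylase, for Col9a2 (0.958) and Col9a1 (0.876), P4ha2, a catalytic subunit of the same enzyme, for Col9a1 (0.879), the chaperone Calr for Col9a2 (0.952) and Col9a3 (0.925), and Fkbp10, a prolyl isomerase of the endoplasmic reticulum, for Col9a3 (0.932) and Col9a2 (0.936). The translation elongation factor Eef1a1 came after Fkbp10 for Col9a3 (0.926), and Tmem258 after P4hb for Col9a1 (0.864). Ssr2, a subunit of the translocon-associated complex, was nearest to Col2a1 (0.924) and Col11a2 (0.879). Col11a1 had no gene above 0.804 (Scube1). Of these 18 places, 3 per member and some held by the same gene, 5 were named for the same member by Spearman's rho, and 14 by Pearson's r of deviations from each age's mean.

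Of 28 listed genes that fold and modify collagen chains, 21 were tested; 1 fell and 0 rose in resting against proliferative cartilage at P28, where 0.417% of all genes fell, with a median of -1.40 against -0.81 for all genes. This was Serpinh1, the collagen chaperone HSP47, at -2.54 ± 0.65 (SE, adjusted p = 0.0236 in edgeR). Serpinh1 was also the 1 listed gene that fell in hypertrophic against proliferative cartilage at P28, at -2.50 ± 0.64 (SE, adjusted p = 0.0137 in edgeR). Of all genes, 1.12% were called in that comparison in either direction. At P2, 3 of 21 fell in hypertrophic against proliferative cartilage, where 2.31% of all genes were called in either direction, among them the lysyl hydroxylase Plod2 at -2.74 ± 0.73 (SE, adjusted p = 0.0143 in edgeR), beside P4ha3 and Fkbp14. In resting against hypertrophic cartilage at P2, 3 of 21 were higher (P4ha3, Leprel2 and Fkbp14), where 3.77% of all genes were called in either direction.

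Of 12 listed regulators of these genes, 9 were tested. The transcription factor Mef2c was lower in resting than in proliferative cartilage at P28, at -3.99 ± 0.85 (adjusted p = 0.00219 in edgeR), the 1 call of the list there, where 0.417% of all genes fell. Sox5, a partner of Sox9, was higher in resting than in hypertrophic cartilage at P2, at 3.88 ± 1.13 (SE, adjusted p = 0.0229 in edgeR). Mef2c was lower there, at -4.18 ± 0.80 (SE, adjusted p = 3.65e-05 in edgeR), and 3.77% of all genes were called in either direction. For propeptide processing and crosslinking, 9 of 14 were tested. The lysyl oxidase Loxl4 was lower in resting than in hypertrophic cartilage at P28, at -8.86 ± 1.02 (SE, adjusted p = 2.09e-14 in edgeR), and Lox and Loxl4 were the 2 that were lower at P2. Of all genes, 1.77% were called in either direction in this comparison at P28 and 3.77% at P2.

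Fibril partners bind or space collagen fibrils. Of 18 listed, 15 were tested; in P28 against P2 proliferative cartilage 5 rose and 1 fell, with a median of 1.22 against 0.04 for all genes, of which 0.424% rose. The link protein Hapln1 rose by 1.83 ± 0.36 (adjusted p = 0.000189), Comp, which binds collagens II and IX, by 2.05 ± 0.43 (adjusted p = 0.00101), and the cartilage matrilin Matn1 stood at -2.47 ± 0.59 (SE, adjusted p = 0.00752, all in edgeR). In resting against proliferative cartilage at P28, Hapln1 was the 1 partner that passed, lower in resting (adjusted p = 0.00504 in edgeR), where 0.417% of all genes fell. It was also lower in resting than in hypertrophic cartilage at P28, at -2.20 ± 0.46 (SE, adjusted p = 0.000438 in edgeR), where 1.77% of all genes were called in either direction. The same held for Hapln1 at P2, at -2.07 ± 0.46 (SE, adjusted p = 0.000573 in edgeR). Prelp and Fmod, leucine-rich proteins that bind fibrils, were lower in hypertrophic than in proliferative cartilage at P28, at -4.36 ± 0.68 and -2.77 ± 0.62 (SE, adjusted p = 2.48e-07 and 0.00253 in edgeR). Epyc also fell there (-3.57 ± 0.89, SE, adjusted p = 0.0114 in edgeR), where 1.12% of all genes were called in either direction. At P2 Prelp and Fmod stood at -5.63 ± 0.76 and -4.485 ± 0.71 (SE, adjusted p = 2.34e-10 and 1.75e-07 in edgeR), where 2.31% were called. In resting against hypertrophic cartilage at P2, 5 partners were higher and 3 lower, where 3.77% of all genes were called in either direction.

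Other collagens of cartilage and its surroundings were tested for 13 of 14 listed genes in the zone comparisons, and for 11 in P28 against P2 proliferative cartilage. Col5a2, a chain that can join collagen XI in fibrils, was lower in resting than in hypertrophic cartilage at P2 (-4.58 ± 1.14, adjusted p = 0.00414) and at P28 (-4.37 ± 1.12, SE, adjusted p = 0.0115, both in edgeR). Of all genes, 1.77% were called in either direction in this comparison at P28. Col10a1, the collagen of hypertrophic cells, and Col12a1, a collagen of fibril surfaces, rose in the proliferative zone from P2 to P28, Col12a1 by 3.35 ± 0.74 (SE, adjusted p = 0.00234 in edgeR). There 0.424% of all genes were called higher. Of 7 collagen receptors 6 were tested, and 1, Ddr2, passed, higher in resting than in hypertrophic cartilage at P2 (5.20 ± 1.55, SE, adjusted p = 0.0291 in edgeR). Of 8 collagenases and gelatinases 3 were tested in the zone comparisons, and 1, Mmp2, passed at P2, lower in hypertrophic than in proliferative (-4.19 ± 1.12, SE, adjusted p = 0.0148) and higher in resting than in hypertrophic cartilage (5.14 ± 1.16, SE, adjusted p = 0.000859, both in edgeR). Of all genes at P2, 2.31% were called in either direction for hypertrophic against proliferative and 3.77% for resting against hypertrophic cartilage.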

How the data were processed

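The authors' deposited table gives unnormalized read counts per symbol in 100 columns of 68 libraries. The submitters' processing notes list STAR 2.5.2b, featureCounts 1.5.3, Subread, cutadapt and the build mm10. For the annotation, the strand setting and reads with several matches, the choice is not given in the sources used here. The 2 columns of each of 32 libraries differed about as much as sampling gives (chi-square per gene at most 1.299) and were summed.

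The sums by animal and zone went into edgeR 4.0.16 under R 4.3.3 (TMM with factors of 0.191 to 2.00, filterByExpr, robust quasi-likelihood F-test, Benjamini-Hochberg over all genes tested, threshold 0.05). Zone comparisons and their interactions with age came from 1 fit with the animal as a block (8 residual degrees of freedom), and age comparisons from separate fits by zone that included a deposit set term (4 residual degrees of freedom). Under the block, P2 C, P2 E and P2 F, each with a sum of 1 zone, add nothing to the zone differences. Pairing of zones comes from the animal labels; deviations from group means correlated within animals at -0.00358 to 0.187. All 6 members passed the filter in each fit. DESeq2 1.42.0, RLE, other filters and minimums, thinning, and leaving out animals or libraries were alternatives, and the scripts were tested on simulated data. Members and gene lists were chosen with earlier results of these data known. Each list's named genes are at most 4 per comparison, by smallest adjusted p. Likeness is Pearson's r of log2 TMM CPM with a prior count of 2. In the zone fit the p-values rest on the spread left after the animal block, and in the age fits on the spread between animals. edgeR draws each gene's spread toward that of all genes, so the p-values are not those of these few animals alone.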

Additional observations from a re-analysis of the deposited data

Results flagged for a closer look

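In groups of 4 to 10 samples, 6 of 60 groups of member levels or ratios had 1 sample apart from the others by Dixon's test, where chance gives about 1 in 20. Col9a3 in the P2 A animal was low among the P2 proliferative sums (3119 TMM CPM) and among the P2 resting sums (2750 TMM CPM). In P2 resting cartilage the ratio of Col11a1 to Col2a1 per kilobase stood at 1.04 in P2 A, above the other 3 sums. In P2 hypertrophic cartilage the P2 C sum stood apart for Col9a1 per Col9a3 (3.14) and Col9a2 per Col9a3 (2.49), with 8 Col9a3 counts behind both. Col9a2 in the library labelled P28 hypertrophic xylene replicate 3 stood at 13.8 CPM outside the 3 symbols, far below the other 4 libraries of its group.

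The resting against hypertrophic difference of Col9a1 differed between P2 and P28 by -2.46 on the log2 scale, tested as an interaction in edgeR (adjusted p = 0.0407, with the range over the alternatives in the section on processing). The median over all genes was -0.82.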

How the results depend on the processing

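Of 1734 values of single members under alternatives, 112 changed sign; all 112 were within 1 SE of 0 in one of the fits, and none was called in either.

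In resting against proliferative cartilage at P28 the count of members called, 1, became 0 under RLE, DESeq2, no replicate block for the animal, a minimum of 50000 counts outside the 3 symbols, a minimum of 10000 counts and thinning to one total, and 0 without P28 proliferative ethanol replicate 9 (alone or with P2 resting ethanol replicate 8) or P28 resting ethanol replicate 1. It became 2 with the full label as the animal and with xylene sums added, with or without hypertrophic xylene replicate 3. In the fits with xylene sums, P28 D entered once for each fixation. Leaving out each animal gave 0 to 1. The interaction of resting against hypertrophic with age, 1, became 0 under RLE, no filter, DESeq2, no replicate block, both minimums, thinning, without the 2 tested libraries under 50000 counts outside the 3 symbols, and without each doubted library; leaving out each animal gave 0 to 1. Without the animal block the adjusted p of Col11a1 was 0.390 and that of Col9a1 0.248; the block changed no other call of a member. In P28 against P2 proliferative cartilage the count, 2, became 1 under RLE, no filter and no deposit set term and without P28 proliferative ethanol replicate 9, and 0 under DESeq2, the minimum of 10000 counts and thinning; leaving out each animal gave 0 to 2. Resting against hypertrophic rose from 0 to 1 at P2 when thinned (leaving out each animal gave 0 to 1), and at P28 to 1 with xylene sums added and to 2 without hypertrophic xylene replicate 3 among them. The causes were not tested. The other comparisons kept 0 calls under each alternative run. For the Col9a1 interaction the adjusted p ran from 0.00642 to 0.750 over the alternatives.

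Alternatives with single libraries left out, and those with xylene replicate 3 left out, were chosen after seeing the data. Low depth limits P2 hypertrophic sums most: that of P2 C held 33 Col9a1, 16 Col9a2 and 8 Col9a3 counts, and 13080 and 20032 counts lay outside the 3 symbols in P28 hypertrophic replicate 8 and P2 hypertrophic replicate 3.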
